A study of Mus musculus with 65 samples.

Results

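Solute carriers are the membrane proteins that move sugars, amino acids, neurotransmitters, metals, ions and metabolites across the plasma membrane and the membranes of mitochondria, vesicles and the Golgi. Their genes carry the prefix Slc, and the number that follows names a family of related sequence. Every gene of the deposited table whose symbol was Slc followed by a number was taken. This gave 198 of the 11971 genes, of which 138 had a mean above 5 CPM over all cells, where CPM is the reads of a gene scaled to a total of 1000000 reads per cell, and are described here. The 60 others are covered by counts only, apart from a few named for their role. Nearest to that limit, Slc16a13 (5.04 CPM) and Slc35b3 (5.15 CPM) lay just above it, and Slc6a17 (4.57 CPM) and Slc16a14 (4.56 CPM) just below. Of the 198 symbols, 4 encode no transporter, and 1 of these, the scaffold gene Slc9a3r1, was among the 138.

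The series holds 65 single cells of the cortex, taken at E13.5 from embryos of the mouse strain C57BL/6J, an age at which dividing progenitors line the ventricle and the first excitatory neurons leave them. The dissection left out the ganglionic eminences, tissue of all embryos went into a common suspension, and live cells, chosen by the dye propidium iodide, were sorted one at a time. The labels call every cell a neural progenitor and give 1 group with no treatment or mutation. A number in the titles, whose meaning is not stated, forms 3 title sets with 31, 13 and 21 cells, which were treated as possible batches.

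Dividing and young neural cells are known to differ in the carriers they use. Progenitors take up glucose and exchange lactate through facilitative carriers of the plasma membrane. Excitatory neurons load glutamate into synaptic vesicles through the vesicular glutamate transporters. Astrocytes and radial glia clear glutamate through the SLC1 family.

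Cells were sorted into classes by 3 genes that are not solute carriers, each counted at 10 CPM or more. Sox2, a transcription factor of neural progenitors, marked 18 cells, called Sox2 progenitors. Neurod6, a factor of young excitatory neurons, marked 16 Neurod6 neurons. Dlx5, a homeobox gene of the ventral forebrain and of the interneurons born there, marked 7 Dlx5 cells. A further 4 cells held Sox2 and Dlx5, and 20 held none of the 3. The cells sat far from the limit, since 2 Sox2 cells and no Neurod6 or Dlx5 cell lay between 5 and 20 CPM.

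Markers outside the rule followed the classes in part, and went against the progenitor label for many cells. Dcx, a microtubule protein of young neurons, reached 10 CPM in 15 of 16 Neurod6 neurons, 6 of 7 Dlx5 cells and 1 of 18 Sox2 progenitors, and in 34 cells in all. Of the other young neuron genes listed, Tubb3 did so in 16, 7 and 12 cells in the same order, Map2 in 16, 7 and 9, and Stmn2 in 14, 6 and 2. Summed CPM of 8 apical progenitor genes, among them the class gene Sox2, ran from 691 to 5191 (median 3248) in Sox2 progenitors. It ran from 200 to 2093 (median 1030) in Neurod6 neurons and from 246 to 1933 (median 1258) in Dlx5 cells, so the ranges overlapped. Sox2 itself had medians of 170, 0 and 0.0734 CPM in the same order. The rule fixed these, so part of the difference in the sum was set in advance. The summed CPM of 3 mitotic genes had a median of 1076 (range 1.30 to 2489) in Sox2 progenitors. Its median was 27.7 (0 to 5068) in Neurod6 neurons and 0.646 (0 to 460) in Dlx5 cells. Eomes, a T-box factor of intermediate progenitors, reached 10 CPM in 10 of 16 Neurod6 neurons, 3 of 18 Sox2 progenitors and 0 of 7 Dlx5 cells. In the same order, Neurog2 of that list did so in 6, 6 and 0 cells and Btg2 in 3, 12 and 2. The name Neurod6 neurons thus covers cells with intermediate progenitor or mitotic genes. The class medians of total reads were 16242088.5 for Sox2 progenitors, 13317944.5 for Neurod6 neurons and 13615302 for Dlx5 cells. Summed reads of 5 erythroid genes, among them the globin genes Hbb-y and Hba-x, also differed between the classes. They ranged from 0 to 5613 CPM (median 315) in Sox2 progenitors, from 0 to 1090 CPM (median 36.7) in Neurod6 neurons and from 0 to 404 CPM (median 48.1) in Dlx5 cells. They differed between the title sets as well, with Hbb-y at 10 CPM or more in 10 of 31, 13 of 13 and 21 of 21 cells. Hba-x was so in 4, 13 and 16 cells and Hbb-bh1 in 1, 13 and 5. Title sets 1, 2 and 3 gave 7, 5 and 6 Sox2 progenitors, 11, 2 and 3 Neurod6 neurons and 5, 1 and 1 Dlx5 cells. The part of the title sets in the erythroid difference was not tested. The part of depth, division or erythroid RNA in the class differences below was not tested. Of the 4 mural and meningeal genes measured, Col1a1, Col1a2 and Pdgfrb reached 10 CPM in no cell of these classes, and Col3a1 did so in 1 Neurod6 neuron and 1 cell with Sox2 and Dlx5. Of the 2 microglial genes measured, C1qb reached it in no cell and Cx3cr1 in 4 cells, among them 1 Sox2 progenitor and 1 Neurod6 neuron, and their summed CPM went up to 93.7 in Sox2 progenitors, 15.3 in Neurod6 neurons and 6.96 in Dlx5 cells. The part of these cells in the results was not tested.

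Because no animal is named and the embryos were pooled, the cells are a single sample and not replicates. No p-value or standard error was therefore computed, and a member is named as higher or lower in a class when its mean log2(CPM + 1) differed by 2 or more. A value of log2(CPM + 1) is compared only for the same gene between cells, since CPM is not divided by transcript length. Lowest, median and highest CPM are given for each class, and shares of cells carry exact binomial 95% intervals that cover counting error only.

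Across all 65 cells the family was patchy rather than uniform. The counts given here were not made over all genes, so this cannot be read as particular to solute carriers. Only 8 of the 138 members reached 10 CPM in more than 50% of cells, 86 reached it in 6 to 32 cells and 44 in 5 or fewer. The median member did so in 8 cells, with a range from 1 to 63. For 41 members, a single cell held over 50% of the CPM summed over all cells, and across members the highest cell held a median of 35.5%. The SMARTer reads carry no molecular identifiers, so these peaks are reads and not counted molecules.

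A typical cell expressed a small and changing selection of the members. Over all 11971 genes, with no limit on the mean, cells had a median of 2768 at 10 CPM or more. The number of members at 10 CPM or more per cell ran from 8 to 48 with a median of 26 over all cells. Its class medians were close, at 26.5 in Sox2 progenitors, 28 in Neurod6 neurons and 28 in Dlx5 cells. The summed CPM of the members had class medians of 7807, 7436 and 8091 in the same order, with ranges that overlapped. Cells with more genes detected overall also had more solute carriers detected, as the plot of cells shows.

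**Figure D1:**
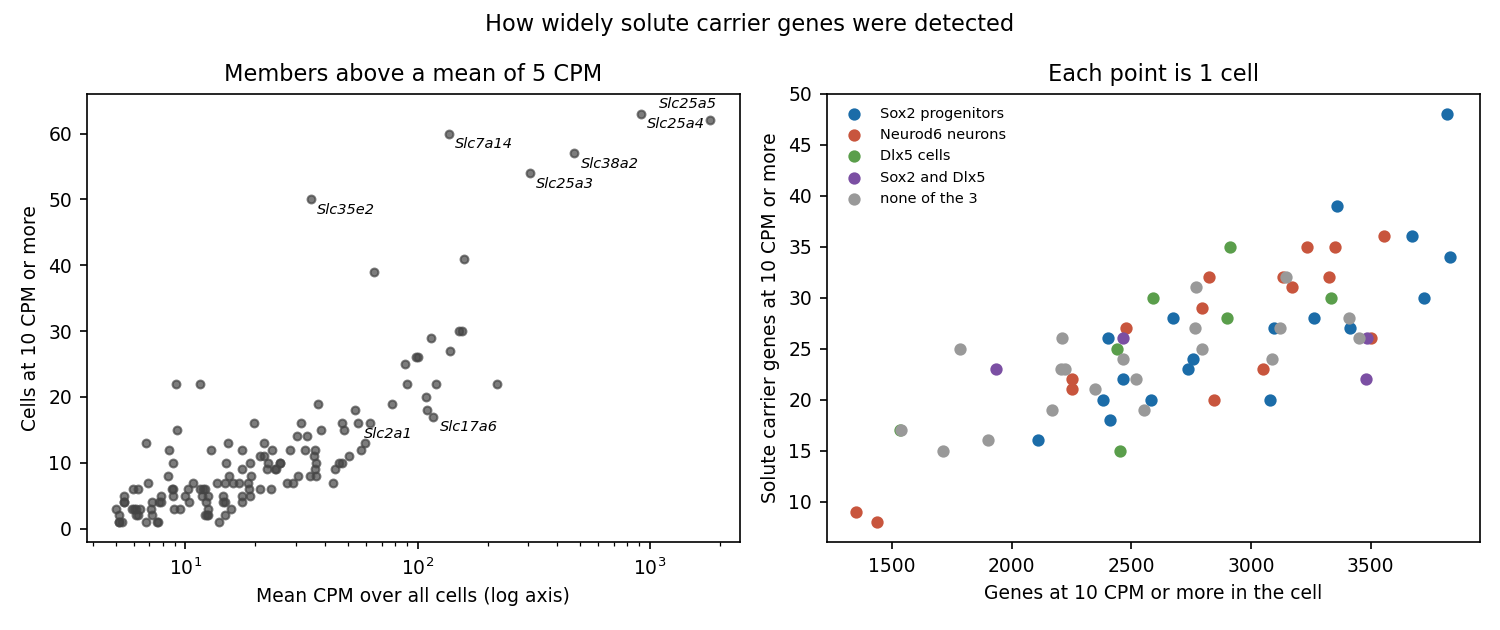
Left, each point is a member of the 138, with its mean CPM over all cells on a log axis (not divided by transcript length) and the number of cells, of 65, at 10 CPM or more. Right, each point is a cell, with all genes at 10 CPM or more against solute carrier genes at 10 CPM or more, coloured by class. Few members reach most cells, and the classes overlap on both axes.

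The 8 widely detected members included 3 mitochondrial carriers. Slc25a4 and Slc25a5, the adenine nucleotide translocators that exchange ADP for ATP across the inner mitochondrial membrane, reached 10 CPM in 63 and 62 cells. Slc25a4 had 915 ± 647 CPM (SD over 65 cells) and Slc25a5 1818 ± 1170 CPM. Slc25a3, the mitochondrial phosphate carrier, reached 10 CPM in 54 cells. Slc38a2 and Slc38a1, sodium-coupled carriers of glutamine and other small neutral amino acids, did so in 57 and 41 cells, and Slc39a1, a plasma membrane zinc importer, in 39. The list of 8 was completed by Slc7a14, a relative of the cationic amino acid carriers, in 60 cells and Slc35e2, an orphan of the nucleotide sugar family, in 50. The annotation and strand setting behind the counts are not known, so reads of overlapping transcripts could not be told apart for these 2 genes.

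The class comparison gave no general shift of the family. Between Neurod6 neurons and Sox2 progenitors, the median difference over the 138 members was -0.14 in log2(CPM + 1), and it was -0.14 over all 9666 genes above the same mean. It was -0.26 for members and -0.27 for all genes between Dlx5 cells and Sox2 progenitors, and -0.10 and -0.09 between Dlx5 cells and Neurod6 neurons. In Neurod6 neurons 4 members were higher than in Sox2 progenitors by 2 or more, 2.90% of members against a background of 5.29% of all genes. In the other direction 3 members were lower, 2.17% against 6.41%. At a difference of 2 or more, the members' shares did not exceed those of the whole table in this comparison. By a 4-fold ratio of mean CPM they did, as given under the processing. The class differences described below come from a short list of genes.

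The plot of members by substrate group gives the members named here for all 3 class comparisons. Against Sox2 progenitors, Dlx5 cells had 9 members higher (6.52%, background 5.94%) and 5 lower (3.62%, background 9.31%). Against Neurod6 neurons they had 9 higher (6.52%, background 4.57%) and 6 lower (4.35%, background 6.32%). Each pair of comparisons shares a class, so that the 36 calls are not independent. With each title set left out in turn, 10 of the 36 calls held every time. With a pseudocount of 10 in place of 1, which shrinks differences at low values, 6 of the 36 held, among them Slc17a6 in both comparisons with Neurod6 neurons, Slc3a2 and Slc38a2 between Dlx5 cells and Sox2 progenitors, and Slc22a23 between Dlx5 cells and Neurod6 neurons.

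**Figure D2:**
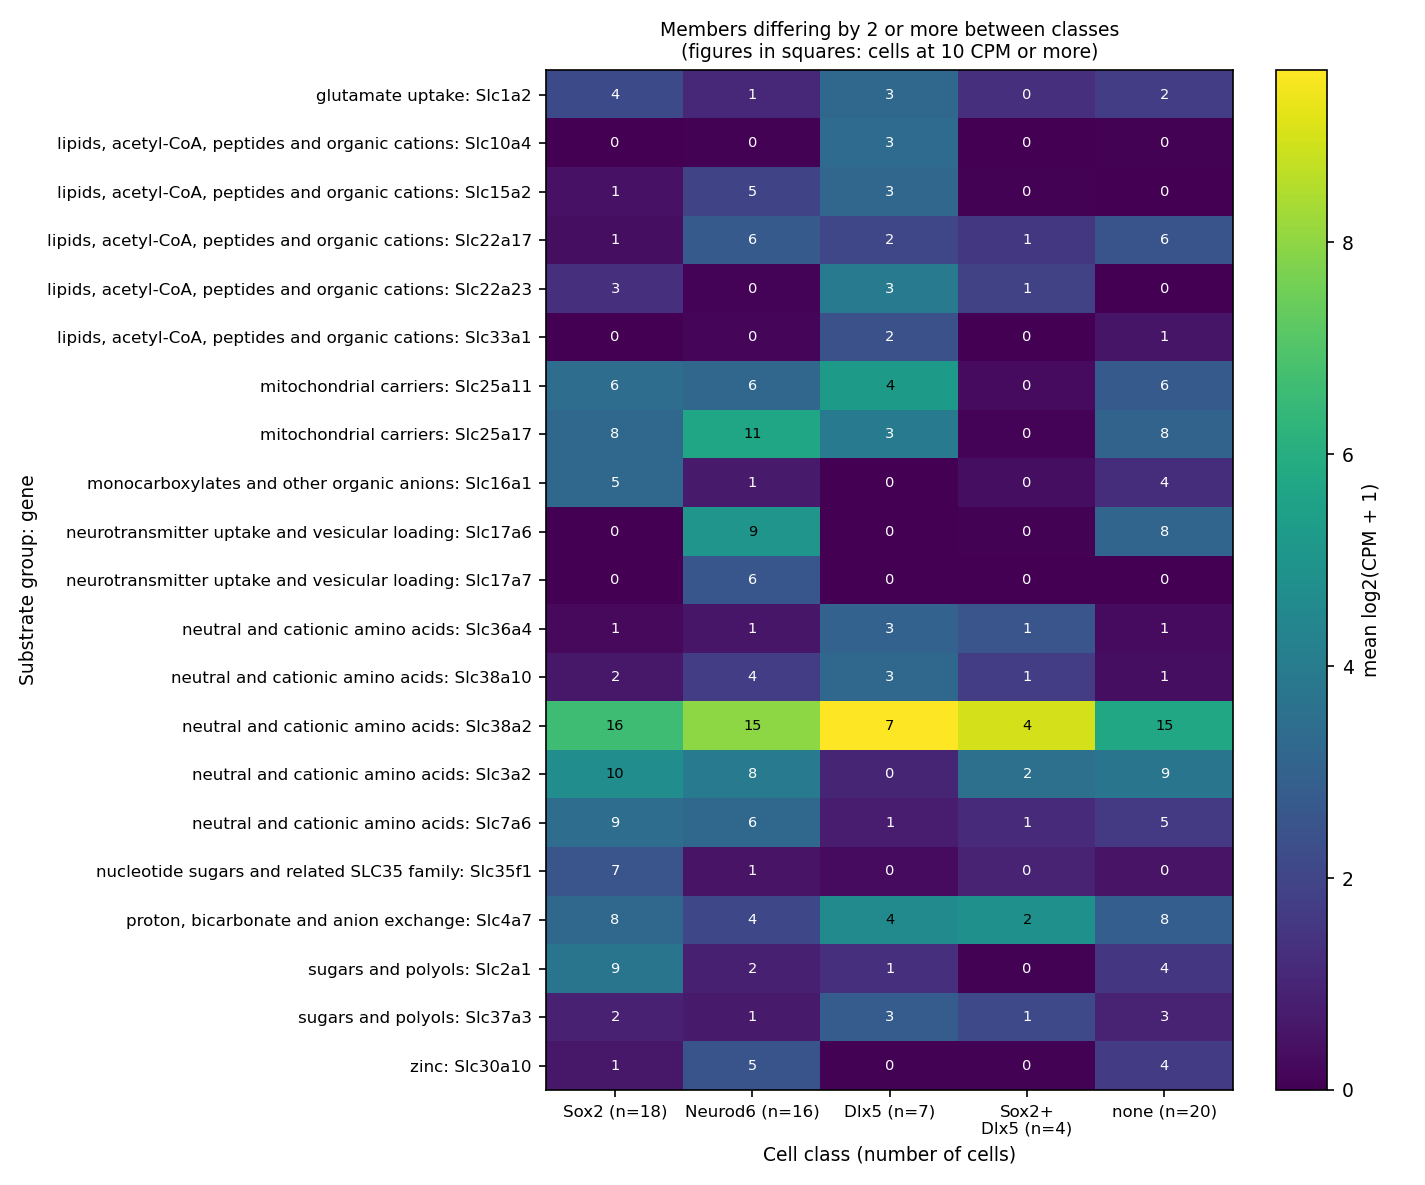
Each line is a member named in the text that differed by 2 or more between a pair of classes, grouped by substrate, and each column is a class with its number of cells. Colour gives the mean log2(CPM + 1) and the figure in each square the cells at 10 CPM or more. Slc17a6 and Slc17a7 are bright in Neurod6 neurons and near 0 in the Sox2 and Dlx5 columns, and Slc3a2 has 0 cells in the Dlx5 column.

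The vesicular glutamate transporters were higher in Neurod6 neurons than in both other classes. Slc17a6 (VGLUT2) and Slc17a7 (VGLUT1) pump cytosolic glutamate into synaptic vesicles and define the glutamatergic phenotype. Slc17a6 ran from 0 to 0.130 CPM in the 18 Sox2 progenitors, with a median of 0. In Neurod6 neurons its lowest value was 0, its median 59.8 and its highest 1747 CPM. All 7 Dlx5 cells were at 0 CPM. Of the 16 Neurod6 neurons 9 reached 10 CPM (56.2%, interval 29.9 to 80.2%), whereas 0 of 18 Sox2 progenitors did, which allows a share of up to 18.5%. The neurons thus fell into cells with many Slc17a6 reads and cells with few or none, and only the latter overlapped the progenitors. The mean difference from Sox2 progenitors was 5.0, and it was 5.79, 4.17 and 2.72 within the 3 title sets.

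Slc17a7 passed 10 CPM in fewer cells, and all of these were Neurod6 neurons. It reached 10 CPM in 6 of 16 (37.5%, interval 15.2 to 64.6%), with a highest value of 226 CPM, and in no other cell of the 65. Its highest value in Sox2 progenitors was 0.261 CPM, and all Dlx5 cells were at 0. Its mean of 10.3 CPM over all cells came almost wholly from Neurod6 neurons. The class in which it was high thus also carried it past the mean of 5 CPM. The difference from Sox2 progenitors was 2.54. Without title set 2, where both Neurod6 neurons held it, the difference was 1.84 and the call was lost. It was 0.00 in set 3. In all, 11 Neurod6 neurons held Slc17a6 or Slc17a7 and 4 held both. Markers of Cajal-Retzius cells, another early glutamatergic neuron of the cortex, were also present in this class. Reln reached 10 CPM in 3 of 16 Neurod6 neurons, 1 of 18 Sox2 progenitors and 0 of 7 Dlx5 cells, Calb2 in 2, 0 and 0, Trp73 in 1, 1 and 0, and Lhx5 in 0, 2 and 1. The summed CPM of these 4 genes had a median of 0.126 and a highest value of 7159 in Neurod6 neurons, against 0.0481 and 327 in Sox2 progenitors and 0.0734 and 50.4 in Dlx5 cells. Their part in the result was not tested.

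Slc17a6 was not limited to the Neurod6 class. Of its 17 cells 8 belonged to none of the 3 classes, where its values at 10 CPM or more ran from 68.6 to 709.5 CPM. Each of these 8 had 10 CPM or more of Eomes, a T-box factor of intermediate progenitors (6 cells), or of Tbr1, a T-box factor of early cortical neurons (3 cells). All 17 Slc17a6 cells held Neurod6, Eomes or Tbr1, which 30 of the 65 cells held. Neurod6 itself was among the genes most like Slc17a6. By Spearman correlation of CPM over the 65 cells, the closest were Cacna2d1, a calcium channel subunit (0.65), Neurod6 (0.63), the helix-loop-helix gene Nhlh2 (0.60), the semaphorin receptor Plxna4 (0.60) and Neurod1 (0.58). Within the title sets the value for Neurod6 was 0.83, 0.56 and 0.27. These cells share the title sets and depth differences, and zeros are many.

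The RefSeq promoter table (build GRCm38.p6, 250 bases before to 50 after each annotated start) matched 153 of the 198 symbols. The files themselves were counted on another build, mm9, and no other coordinates are given. Promoters are shown for the excitatory marker Slc17a6 and for Slc2a1 and Slc16a1, the fuel carriers described next, whose class patterns ran in opposite directions. They were chosen after values were seen. Capitals mark, on either strand, CAGATG (an E-box of neurogenic helix-loop-helix factors), ACAAAG (the core bound by SOX factors) and ACGTG (the core of the hypoxia response element). Of 32851 promoters of this length, 17.2% held CAGATG, 18.7% ACAAAG and 19.6% ACGTG, so that a match is a description of letters and not a binding site. Slc17a6 has a pair of annotated starts, at chr7:51621580-51621879 and chr7:51624387-51624686, Slc2a1 has chr4:119108495-119108794 and Slc16a1 chr3:104638414-104638713, all on the plus strand.
Slc17a6, upstream start: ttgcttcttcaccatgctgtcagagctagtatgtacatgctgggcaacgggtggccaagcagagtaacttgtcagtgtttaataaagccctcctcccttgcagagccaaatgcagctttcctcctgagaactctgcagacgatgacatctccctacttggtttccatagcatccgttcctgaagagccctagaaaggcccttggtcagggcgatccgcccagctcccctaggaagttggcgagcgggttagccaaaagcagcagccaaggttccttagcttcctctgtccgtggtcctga
Slc17a6, downstream start: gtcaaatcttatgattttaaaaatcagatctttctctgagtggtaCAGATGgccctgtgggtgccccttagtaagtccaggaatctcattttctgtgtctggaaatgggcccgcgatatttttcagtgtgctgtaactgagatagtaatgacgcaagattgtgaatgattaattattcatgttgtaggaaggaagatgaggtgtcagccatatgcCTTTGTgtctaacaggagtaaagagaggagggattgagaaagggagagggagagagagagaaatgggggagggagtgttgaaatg
Slc2a1: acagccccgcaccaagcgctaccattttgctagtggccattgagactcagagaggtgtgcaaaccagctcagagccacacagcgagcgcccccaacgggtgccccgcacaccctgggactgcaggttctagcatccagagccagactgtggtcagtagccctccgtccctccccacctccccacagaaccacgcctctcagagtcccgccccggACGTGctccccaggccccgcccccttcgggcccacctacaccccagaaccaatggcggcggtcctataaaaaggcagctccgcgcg
Slc16a1: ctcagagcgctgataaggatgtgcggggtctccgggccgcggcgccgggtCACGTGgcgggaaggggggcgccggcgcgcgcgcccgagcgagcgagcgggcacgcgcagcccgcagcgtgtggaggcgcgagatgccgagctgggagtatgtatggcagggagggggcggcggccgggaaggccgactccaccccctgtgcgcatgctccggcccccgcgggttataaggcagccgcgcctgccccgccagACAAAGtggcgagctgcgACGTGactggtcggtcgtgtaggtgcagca
The upstream Slc17a6 window held none of the 3 motifs, and the downstream window held 1 CAGATG and 1 ACAAAG. Slc2a1 held 1 ACGTG. Slc16a1 held 1 ACAAAG and 3 ACGTG, of which a pair overlap on opposite strands in CACGTG.

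Slc2a1 and Slc16a1 had lower means in Neurod6 neurons and Dlx5 cells than in Sox2 progenitors. Slc2a1 (GLUT1) is the main facilitative glucose carrier of the embryonic brain, and Slc16a1 (MCT1) carries lactate, pyruvate and ketone bodies with a proton. Slc2a1 had a lowest value of 0, a median of 11.4 and a highest of 598 CPM in Sox2 progenitors. Neurod6 neurons ran from 0 to 269 CPM with a median of 0.036, and Dlx5 cells from 0 to 511 CPM with a median of 0. The ranges overlapped, because single cells of the later classes had values as high as those of progenitors. At 10 CPM or more were 9 of 18 Sox2 progenitors (50%, interval 26 to 74%), 2 of 16 Neurod6 neurons (12.5%, interval 1.55 to 38.3%), 1 of 7 Dlx5 cells and 0 of the 4 cells with Sox2 and Dlx5.

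The mean of Slc2a1 in Neurod6 neurons was lower than in Sox2 progenitors, with a difference of -2.89 in log2(CPM + 1). Within the 3 title sets the differences were -2.78, -6.16 and -1.06, the same direction in each. Without title set 2 the difference was -1.70 and the call was lost. Dlx5 cells were also lower than Sox2 progenitors, at -2.43, and this became -1.09 without set 2. Of the 16 cells with Slc2a1, 11 held the division gene Top2a, where independent draws would give 7.88. Of the same 16, 12 lacked Dcx at 10 CPM and 4 held it, where draws would give 8.37. The genes closest to Slc2a1 over 65 cells included the G1 cyclins Ccnd3 (Spearman 0.57) and Ccnd1 (0.57), after Nsmce4a of the SMC5/6 complex (0.58). They were followed by Dnajc9 (0.54) and Hcfc1 (0.54). Within the title sets the likeness was weaker in part, at 0.57, 0.30 and -0.09 for Ccnd3 and at 0.56, 0.27 and 0.48 for Ccnd1.

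Slc16a1 was at 10 CPM or more in 5 of 18 Sox2 progenitors, 1 of 16 Neurod6 neurons and 0 of 7 Dlx5 cells. Its range was 0 to 628 CPM with a median of 3.64 in Sox2 progenitors, 0 to 175 CPM with a median of 0 in Neurod6 neurons, and every Dlx5 cell was at exactly 0 reads. Sox2 progenitors without a strong signal often had a few CPM, which the other classes mostly lacked. The difference between Neurod6 neurons and Sox2 progenitors was -2.55, but its direction was not shared by the title sets, at -4.66, -2.01 and 0.50, and it was -0.49 without set 1. The Dlx5 difference of -3.25 held with each set left out, between -3.74 and -2.20, and was -1.61, no longer a call, with a pseudocount of 10. Of the 10 cells with Slc16a1, 6 held Top2a, where independent draws would give 4.92. Dcx was held by 1 of them, where draws would give 5.23.

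Taking the fuel carriers together, 11 of 18 Sox2 progenitors held Slc2a1 or Slc16a1, 3 of them both. The count was 3 of 16 in Neurod6 neurons and 1 of 7 in Dlx5 cells. Slc17a6 and Slc2a1 met in 2 cells where independent draws would give 4.18, and Slc17a6 and Slc16a1 in 0 where they would give 2.62. These counts compare genes that were picked for opposite class patterns and are given as a description.

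**Figure D3:**
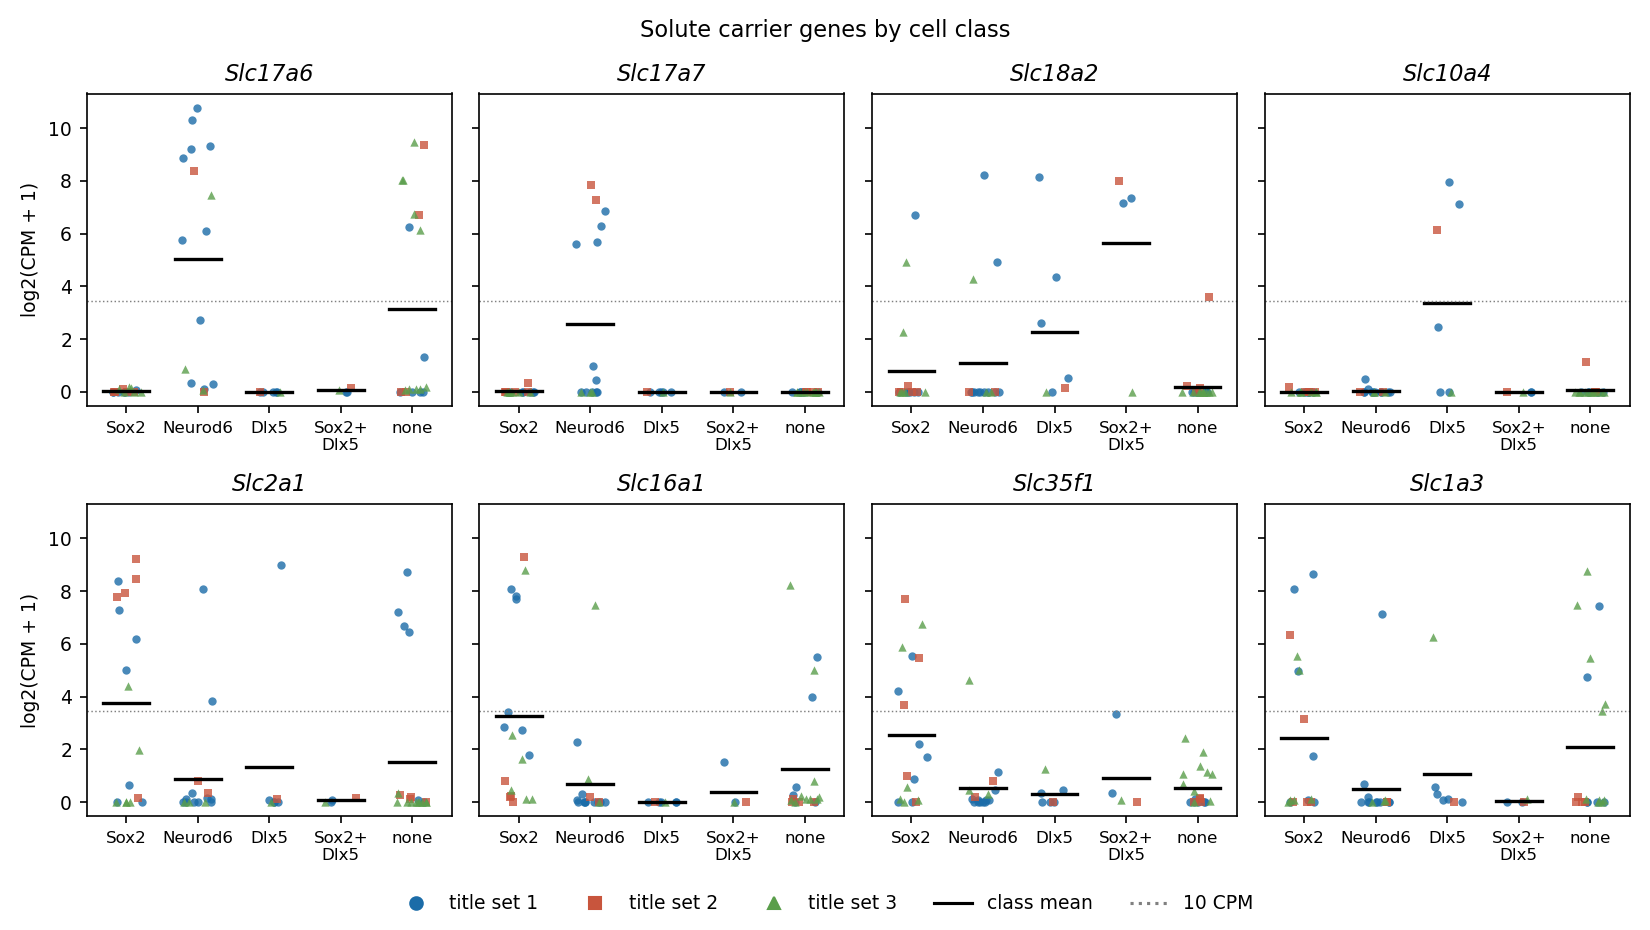
Each point is a cell, with the gene's log2(CPM + 1) on the vertical axis and the class on the horizontal axis, and colour and shape give the title set. Bars are class means and the dotted line is 10 CPM. Slc17a6 and Slc17a7 pass 10 CPM only outside the Sox2 and Dlx5 columns, Slc10a4 passes 10 CPM only in Dlx5 cells, and Slc2a1, Slc16a1, Slc35f1 and Slc1a3 have most of their high points among Sox2 progenitors and unclassed cells.

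The remaining sugar carriers were sparse. Of the 10 sugar and polyol members, 8 had a lower mean in Neurod6 neurons than in Sox2 progenitors, but only Slc2a1 by 2 or more. The group's median difference was -0.16 against -0.14 for all genes, of which 55.6% had a lower mean. Slc2a3 (GLUT3), the glucose carrier of mature neurons, reached 10 CPM in a single cell, at 333 CPM, which held Sox2 and Dlx5. No Neurod6 neuron had a Slc2a3 read. Slc2a5, a fructose carrier, also peaked in 1 cell, a Sox2 progenitor with 495.5 CPM. Slc5a3, the sodium-coupled myo-inositol carrier, reached 10 CPM in 4 Sox2 progenitors, 2 Neurod6 neurons and 1 Dlx5 cell, with a highest value of 1035 CPM in a progenitor. Slc37a3, a sugar phosphate exchanger relative, was higher in Dlx5 cells than in Neurod6 neurons by 2.11, with 3 of 7 against 1 of 16 cells, and by 0.96 without title set 2.

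The glutamate uptake members had different class patterns. Slc1a3 (GLAST), the radial glial glutamate transporter, ranged from 0 to 402 CPM with a median of 0.067 in Sox2 progenitors, from 0 to 139 CPM in Neurod6 neurons and from 0 to 75.1 CPM in Dlx5 cells. It reached 10 CPM in 6 of 18, 1 of 16 and 1 of 7 cells. Its difference between Neurod6 neurons and Sox2 progenitors was -1.93, short of a call, and was negative in all 3 title sets (-2.63, -1.90 and -1.75). A further 6 of its 14 cells belonged to none of the classes. Slc1a2 (GLT-1), the main glutamate transporter of mature astrocytes, reached 10 CPM in 4 of 18, 1 of 16 and 3 of 7 cells. Dlx5 cells were higher than Neurod6 neurons by 2.18 for Slc1a2, and by 1.86 without set 2.

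Among genes of synaptic vesicles, Slc10a4, an orphan of the bile acid carrier family, reached 10 CPM in Dlx5 cells only. Its Dlx5 values were 0, 0, 0, 4.43, 69.2, 139 and 247 CPM. Outside the class its highest value was 0.130 CPM in Sox2 progenitors, 0.417 CPM in Neurod6 neurons and 1.21 CPM in cells of none of the 3 classes, and the 4 cells with Sox2 and Dlx5 were at 0. Dlx5 cells exceeded Sox2 progenitors by 3.37 and Neurod6 neurons by 3.34, and these differences stayed at 2.88 or more with each title set left out. With a pseudocount of 10 they were 1.73 and 1.72 and both calls were lost. The calls rest on 3 cells. The same cells carried the gene past the mean of 5 CPM, with a mean of 7.09 CPM over all cells and 3.35 CPM without the highest. Its limit to Dlx5 cells is therefore tied to how it was admitted. Slc32a1, the vesicular transporter that loads GABA, lay under the mean of 5 CPM and reached 10 CPM in 1 cell only, a Dlx5 cell.

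Slc18a2 (VMAT2), which loads monoamines into vesicles, was found in 3 of the 4 cells with Sox2 and Dlx5, at 143, 161 and 253 CPM. It reached 10 CPM in 2 of 7 Dlx5 cells, 3 of 16 Neurod6 neurons and 2 of 18 Sox2 progenitors. The spread within each class was wide, and no difference between the 3 main classes reached 2.

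Of the 22 members for neutral and cationic amino acids, 3 were called higher and 2 lower in Dlx5 cells than in Sox2 progenitors. Over all genes 5.94% were called higher and 9.31% lower. Slc3a2 (4F2hc) is the heavy chain that brings the light chains of the SLC7 family to the plasma membrane, among them Slc7a5 (LAT1) and Slc7a6. It ran from 0.215 to 686 CPM with a median of 25.3 in Sox2 progenitors and from 0 to 403 CPM with a median of 12.2 in Neurod6 neurons. The 7 Dlx5 cells held 0.322, 0.54, 0.73, 1.02, 1.11, 1.37 and 2.21 CPM. Every Dlx5 cell thus had Slc3a2 reads at a low level and none reached the values of the upper progenitors, although the ranges overlapped at the bottom. At 10 CPM or more were 10 of 18 Sox2 progenitors (55.6%, interval 30.8 to 78.5%), 8 of 16 Neurod6 neurons (50%, interval 24.7 to 75.3%) and 0 of 7 Dlx5 cells, which allows up to 41%. Of the 4 cells with Sox2 and Dlx5, 2 did so.

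Dlx5 cells were lower in Slc3a2 than Sox2 progenitors, with a difference of -3.74 that ran from -4.23 to -3.19 with a title set left out. Against Neurod6 neurons the difference was -3.0, and it ran from -3.64 to -2.26. Its partner Slc7a6, which exchanges cationic for neutral amino acids, was lower in Dlx5 cells than in Sox2 progenitors (difference -2.67), with 1 of 7 against 9 of 18 cells at 10 CPM. Against Neurod6 neurons, where 6 of 16 reached it, the difference was -2.45, or -1.29 without set 3. Slc7a5 reached 10 CPM in 5 Sox2 progenitors, 1 Neurod6 neuron and 0 Dlx5 cells. In single cells Slc3a2 met Slc7a6 in 13 cells, where independent draws would give 9.82, and Slc7a5 in 6, where they would give 3.12. It met Slc7a11 of the same family in 11, where they would give 9.82. The Spearman values of Slc3a2 with Slc7a6, Slc7a5 and Slc7a11 were 0.29, 0.05 and -0.02.

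Slc38a2 (SNAT2) was high in all Dlx5 cells. Its lowest, median and highest values were 316, 797 and 1795 CPM there, against 0.056, 196 and 1177 CPM in Sox2 progenitors and 0.417, 342 and 1415 CPM in Neurod6 neurons. The upper ends of the 3 classes overlapped, and the lowest Dlx5 cell lay above the median of Sox2 progenitors. The difference from Sox2 progenitors was 2.98, but it was 0.80 within title set 1 and 1.71 without set 3. Its relative Slc38a1 showed no such pattern, at -1.20 for the same comparison, with 13 of 18, 9 of 16 and 4 of 7 cells at 10 CPM.

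Among the other amino acid genes, Slc36a4 and Slc38a10 were higher in Dlx5 cells. Slc36a4, a lysosomal and plasma membrane carrier of proline and tryptophan, exceeded Sox2 progenitors by 2.77 and Neurod6 neurons by 2.44. Slc38a10, a glutamine carrier relative, exceeded Sox2 progenitors by 2.58. Without title set 1, which leaves 2 Dlx5 cells, Slc36a4 was at -0.04 and -0.01 and Slc38a10 at 1.40. Of the 22 members for neutral and cationic amino acids, none was called between Neurod6 neurons and Sox2 progenitors in either direction. Over all genes 5.29% were called higher and 6.41% lower. Slc7a11, the cystine and glutamate exchanger, reached 10 CPM in 3 of 18 Sox2 progenitors, 8 of 16 Neurod6 neurons and 4 of 7 Dlx5 cells, with highest values of 205, 32.2 and 18.1 CPM. More neurons than progenitors passed the limit, but at low values, and no comparison reached 2.

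**Figure D4:**
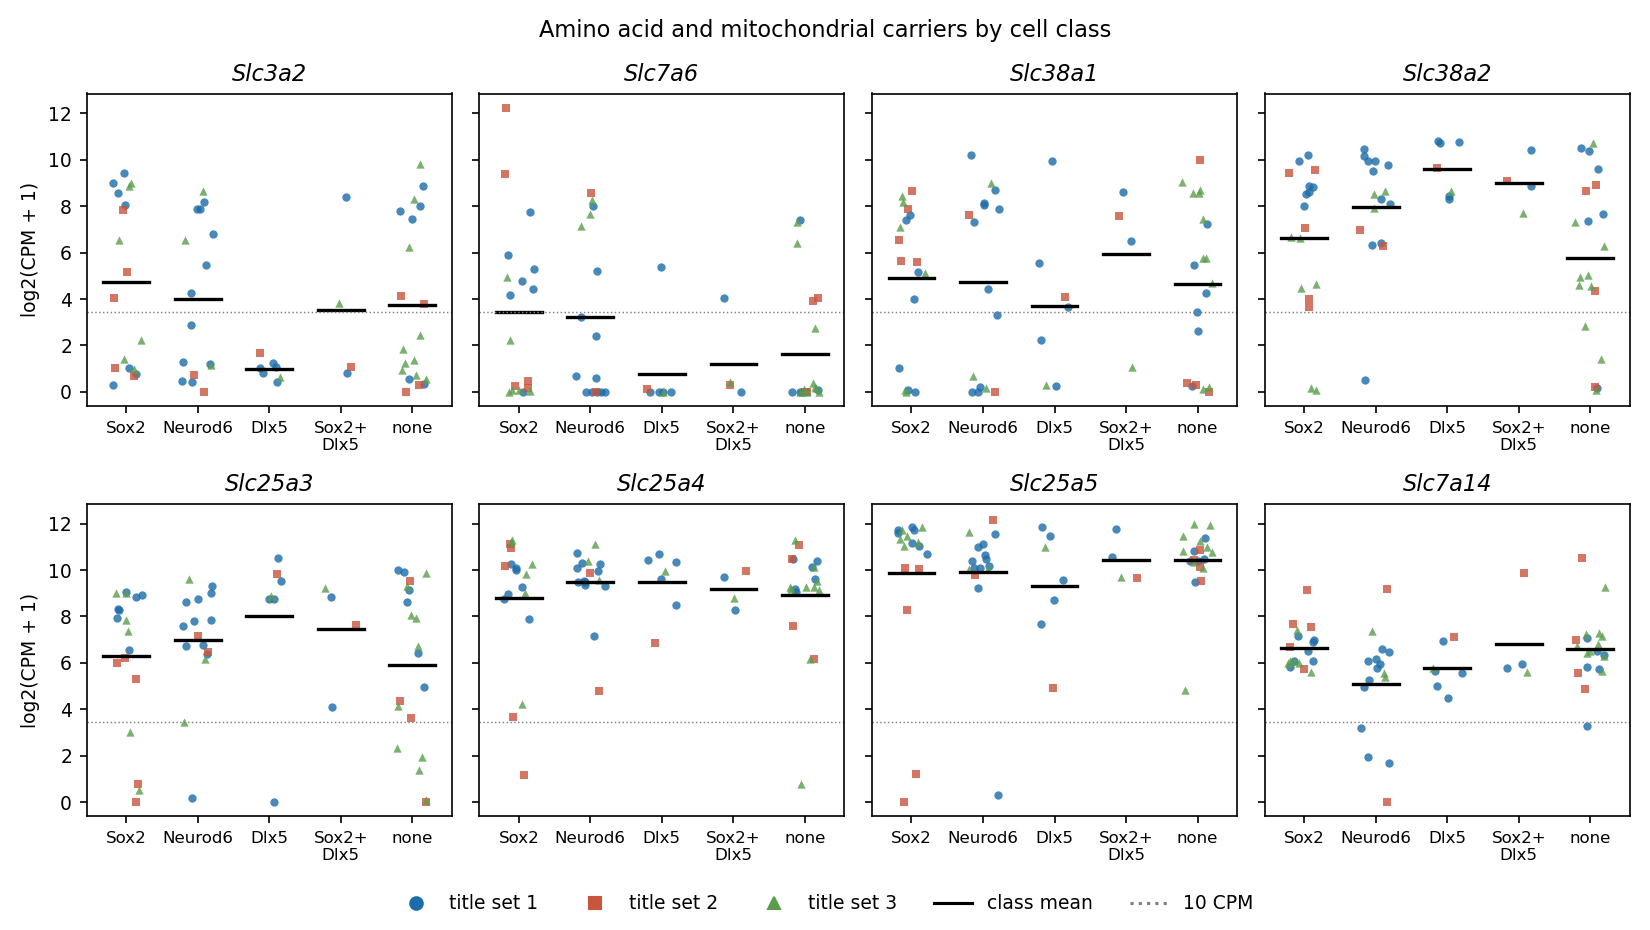
Each point is a cell, with log2(CPM + 1) on the vertical axis and class on the horizontal axis, colour and shape give the title set, bars are class means and the dotted line is 10 CPM. All Dlx5 cells lie under the line for Slc3a2 and above it for Slc38a2, and the mitochondrial carriers Slc25a3, Slc25a4 and Slc25a5 lie above it in most cells of every class.

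Mitochondrial carriers, the group with the most members, gave 1 call in each of 2 comparisons. They shuttle nucleotides, phosphate, keto acids and amino acids across the inner mitochondrial membrane. The first call was higher in Neurod6 neurons than in Sox2 progenitors, as 5.29% of all genes were. The other was higher in Dlx5 cells than in Neurod6 neurons, as 4.57% of all genes were. Of the 27 members above 5 CPM (33 by symbol), 13 had a higher and 14 a lower mean in Neurod6 neurons than in Sox2 progenitors. The median difference was -0.10, against -0.14 for all genes, of which 55.6% had a lower mean. Slc25a4 had medians of 964, 848 and 992 CPM in Sox2 progenitors, Neurod6 neurons and Dlx5 cells, and no class difference above 0.70. Slc25a5 had medians of 2341, 1248 and 763 CPM, with differences of 0.03 and -0.58 from Sox2 progenitors. The order of its medians was not matched by its means on the log scale.

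The share of reads between the adenine nucleotide translocators was uneven from cell to cell. Slc25a4 took a median of 31% of the reads of both genes in Sox2 progenitors, 42.9% in Neurod6 neurons and 37% in Dlx5 cells. Over single cells it ran from 0.0401% to 100%. Slc25a5 has processed pseudogenes, and reads shared with them cannot be assigned with certainty.

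The member called in this family for Neurod6 neurons was Slc25a17, which sits in the peroxisome and carries cofactors. It reached 10 CPM in 11 of 16 Neurod6 neurons (median 255 CPM) and 8 of 18 Sox2 progenitors (median 0.102 CPM). The difference was 2.42 and was 1.67, -1.16 and 4.88 within the title sets, so its direction was not shared. Slc25a11, the oxoglutarate and malate exchanger, was higher in Dlx5 cells than in Neurod6 neurons by 2.09, and by 0.89 without set 2 and 1.87 without set 3. It reached 10 CPM in 4 of 7 and 6 of 16 cells.

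Peptide, lipid and organic ion carriers gave several Dlx5 calls, each from few cells. Of 8 members, 4 were called higher in Dlx5 cells than in Sox2 progenitors, as 5.94% of all genes were. Against Neurod6 neurons 3 were called higher, as 4.57% of all genes were. Slc10a4, described above, is in both counts. Slc22a23, an orphan of the organic ion family, had Dlx5 values of 0, 0, 0.09, 2.54, 312, 376 and 422 CPM, and its highest value in Neurod6 neurons was 1.78 CPM. Dlx5 cells exceeded Neurod6 neurons by 3.82 and Sox2 progenitors by 2.64. All 3 high Dlx5 cells came from title set 1, and without that set the differences were 0.03 and -0.60. Slc15a2, a proton-coupled peptide carrier, was at 10 CPM or more in 3 Dlx5 cells, 5 Neurod6 neurons and 1 Sox2 progenitor, and Dlx5 cells exceeded Sox2 progenitors by 2.72 (1.95 without set 1). Slc33a1, which brings acetyl-CoA into the endoplasmic reticulum and Golgi, rested on 2 Dlx5 cells of set 1, with differences of 2.39 from Sox2 progenitors and 2.22 from Neurod6 neurons that were -0.01 and 0.00 without it.

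Slc22a17, a receptor for the iron-binding protein lipocalin 2, was the last call for Neurod6 neurons. It ran from 0 to 24.5 CPM in Sox2 progenitors and up to 324 CPM in Neurod6 neurons, with 1 of 18 and 6 of 16 cells at 10 CPM. The difference of 2.36 had the same direction within the 3 title sets (2.92, 1.24 and 1.57) and was 1.47 without set 1. Of its 16 cells, 13 held Dcx, where independent draws would give 8.37.

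Nucleotide sugar carriers of the SLC35 family supply the Golgi with building blocks for glycans. The group had 17 members above 5 CPM, of which 10 had a lower mean in Neurod6 neurons and 12 a lower mean in Dlx5 cells than in Sox2 progenitors. Over all genes these shares were 55.6% and 59.5%. Only the orphan Slc35f1 was called, lower in both comparisons, as 6.41% and 9.31% of all genes were. It ran up to 205 CPM in Sox2 progenitors, with 7 of 18 at 10 CPM, against 1 of 16 Neurod6 neurons (23.5 CPM) and 0 of 7 Dlx5 cells (highest 1.36 CPM). Of its 8 cells, 7 held Sox2. The differences were -2.02 for Neurod6 neurons and -2.25 for Dlx5 cells. The first was -1.57 without set 1, -1.63 without set 2 and -1.85 without the cells under 1000000 reads, and the second was -1.81 without set 2. Slc35b1, a carrier of the endoplasmic reticulum, was seen in 6 of 18, 8 of 16 and 4 of 7 cells of the 3 classes.

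None of the 3 chloride cotransport members was called. Slc12a2 (NKCC1) imports chloride and keeps GABA depolarizing in immature neurons, and Slc12a5 (KCC2) extrudes it in mature ones. Slc12a2 reached 10 CPM in 4 of 18 Sox2 progenitors, 4 of 16 Neurod6 neurons and 1 of 7 Dlx5 cells, with differences within title sets of opposite sign (-2.22, 3.44 and 4.95). Slc12a5 had a mean of 3.89 CPM, under the limit, and reached 10 CPM in 4 cells, 2 of them Neurod6 neurons. A single cell held both. Slc12a7 (KCC4), a potassium and chloride cotransporter, fell just short of a call at -2.00 between Neurod6 neurons and Sox2 progenitors, with 6 of 18 against 0 of 16 cells and a negative difference in each title set (-2.08, -2.25 and -1.75).

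Slc4a7, a sodium and bicarbonate cotransporter, was higher in Dlx5 cells than in Neurod6 neurons by 2.53, with 4 of 7 against 4 of 16 cells, and by 1.81 without set 1. Of the 7 proton, bicarbonate and anion exchange members, 5 had a higher mean in Neurod6 neurons and 4 a higher mean in Dlx5 cells than in Sox2 progenitors. A lower mean was found for 55.6% and 59.5% of all genes in these comparisons.

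Metal carriers gave a single call, lower in Dlx5 cells than in Neurod6 neurons, as 6.32% of all genes were. Zinc carriers of the SLC30 (efflux) and SLC39 (influx) families gave 14 members, 7 with a higher and 7 with a lower mean in Neurod6 neurons than in Sox2 progenitors, and a median difference of -0.02. In Dlx5 cells 8 of the 14 had a lower mean than in Sox2 progenitors, with a median difference of -0.40 (all genes -0.27), and 8 had a higher mean than in Neurod6 neurons, with a median of 0.05. The share of all genes with a lower mean was 55.6% for Neurod6 neurons and 59.5% for Dlx5 cells against Sox2 progenitors. It was 55.6% for Dlx5 cells against Neurod6 neurons. Slc39a1 reached 10 CPM in 11 of 18, 8 of 16 and 4 of 7 cells. Slc30a10, which exports manganese, was the only call, lower in Dlx5 cells (highest 0.107 CPM) than in Neurod6 neurons (5 of 16 cells, highest 827.5 CPM). The difference was -2.44, and -1.97 without set 3. Of the 6 members for iron, copper, magnesium and haem, 5 had a lower mean in Neurod6 neurons than in Sox2 progenitors. None was called, and 55.6% of all genes had a lower mean. The copper importer Slc31a1 reached 10 CPM in 7 of 18, 3 of 16 and 3 of 7 cells.

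The smaller groups held no call. The 7 members for vitamins, choline and nucleosides had median differences of -0.18 in Neurod6 neurons and 0.34 in Dlx5 cells against Sox2 progenitors. Slc28a3, a concentrative nucleoside carrier, reached 10 CPM in 5 of 7 Dlx5 cells against 4 of 18 Sox2 progenitors, at values of up to 20.1 and 26.6 CPM. The phosphate carrier Slc20a1 reached it in 4 of 18, 5 of 16 and 1 of 7 cells. The sodium and calcium exchanger Slc8a1 did so in 1, 3 and 1 cells, with a highest value of 504 CPM in a Dlx5 cell. Slc6a8, the creatine carrier, was seen in 1 Sox2 progenitor and 1 Dlx5 cell and in no Neurod6 neuron.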

How the data were processed

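Raw counts, that is, whole-number reads per gene and cell, were deposited by the authors for 11971 genes and 65 cells. Per the submitters' processing notes, which give neither versions nor roles, the tools were TopHat2 and HTSeq and the build was mm9, and no source used here gives the annotation of the counting. Per the labels' protocols, libraries came from a SMARTer kit and a HiSeq instrument. No cell column was left out (0 not used). Totals ran from 85338 to 32130629 reads (median 14609426), with 3 cells under 1000000.

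Counts were divided by each cell's total to give CPM and logged as log2(CPM + 1) with a pseudocount of 1, in Python 3.11.15 with pandas 2.3.3 and NumPy 2.4.6. No cell was removed. The 3 class genes needed 10 CPM. All embryos were pooled, so cells are not replicates and no test was run. A difference of 2 or more between class means was called, over all 9666 genes with a mean above 5 CPM. A test on simulated counts checked the scripts.

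The members, the class genes, the marker lists and the rule for genes named were chosen with earlier results of these data known. Named were up to 10 members per comparison and direction, those with the largest differences, whether called or not. These had to have the same sign in every title set with at least 2 cells of both classes, which for Dlx5 cells was set 1 only. Also named were up to 5 of highest mean in each substrate group, those nearest the mean of 5 CPM, and fixed genes of known role. The placement of a few symbols in substrate groups was edited after the gene names of the table were seen, and the gene pairs, the promoters and Slc2a5, which lies outside that rule, were chosen after values were seen. Alternatives were other class limits, pseudocounts, minimum means, scran 1.30.0 size factors (R 4.3.3), shallow cells or a title set left out, other class rules and a 4-fold ratio of mean CPM. A few results are not reported here, although their genes remain in the counts over all members.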

Additional observations from a re-analysis of the deposited data

How the results depend on the processing

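Counts of called members kept within 1.5 times their value in 60 of 82 alternatives. With a pseudocount of 10, members called higher and lower were 1 and 0 for Neurod6 neurons against Sox2 progenitors, 2 and 1 for Dlx5 cells against Sox2 progenitors, and 1 and 1 for Dlx5 cells against Neurod6 neurons. A larger pseudocount shrinks low values by construction. Without title set 1, which leaves 2 Dlx5 cells and 5 Neurod6 neurons, these counts were 14 and 8, 21 and 14, and 20 and 20. The share of all genes called was not computed for this or the other alternatives except the 4-fold ratio. These counts therefore cannot be read as a change particular to solute carriers. Without set 3, members called lower were 8 for Neurod6 neurons and 9 for Dlx5 cells against Sox2 progenitors. A 4-fold ratio of mean CPM can be carried by single high cells. In the same order it called 28 and 39, 23 and 65, and 25 and 53 of the 138 members. Of all 9666 genes it called 1534 (15.9%) and 2121 (21.9%), 1369 (14.2%) and 3478 (36%), and 1411 (14.6%) and 3147 (32.6%). As a share, more members than genes were called in every comparison and direction. At a difference of 2 or more this held only for members higher in Dlx5 cells. The reason for this was not tested. Requiring the same sign in every title set left 2 higher members for Neurod6 neurons. Counting cells with more than 1 class gene in each class left 4 higher members for Dlx5 cells against Sox2 progenitors. The cause of the changes with title sets was not tested.

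Of 2929 differences of single named members under alternatives, 2887 moved by at most 1 SD of the cells, 38 moved by more and 4 were calls that reversed. This bound was wide, so the 2887 do not show that calls were stable. For Slc16a1 the SD was 3.43 in Sox2 progenitors and 1.90 in Neurod6 neurons. Its change from -2.55 to -0.49 without set 1, which lost the call, stayed within the bound. A change of sign was counted only for calls, and not for differences short of 2. These 4 reversals came without title set 1: against Sox2 progenitors Slc22a23 was at -0.60, Slc33a1 at -0.0057 and Slc36a4 at -0.041, and against Neurod6 neurons Slc36a4 was at -0.013. Of 36 calls 4 held under every alternative tried, among them Slc17a6 in both comparisons with Neurod6 neurons and Slc3a2 between Dlx5 cells and Sox2 progenitors. No paired analysis was possible because the labels give a single group and no shared replicate numbers. Dlx5 cells were too few in title sets 2 and 3, with 1 cell each, for a value within those sets. At 7 cells, an absence of a gene from every Dlx5 cell still allows shares of up to 41%.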

Other observations

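Some solute carriers known from red blood cell development were also present at low levels. Slc4a1, the band 3 anion exchanger of red cells, reached 10 CPM in 1 cell (35.2 CPM), and Slc25a37, the mitochondrial iron importer known as mitoferrin, in 4 cells with a highest value of 60.9 CPM. Both lay under the mean of 5 CPM. The Slc4a1 cell and 3 of the 4 Slc25a37 cells held Hbb-y, an embryonic globin that 44 of the 65 cells held at 10 CPM or more. Slc40a1, the iron exporter ferroportin, reached 10 CPM in 0 cells, with a highest value of 0.2 CPM.

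A further 7 members above the mean of 5 CPM reached 10 CPM in a single cell each. These were Slc2a3, Slc2a5, Slc7a4, Slc25a21, Slc27a3, Slc35b3 and Slc41a3, named after their values were seen. Slc41a3, a magnesium carrier relative, had its 904 CPM in a cell of none of the 3 classes, and Slc7a4, a relative of the cationic amino acid carriers, had 439 CPM in a Neurod6 neuron. In each of the 7 the highest cell held at least 98.5% of the summed CPM.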
